A study of Mus musculus with 12 samples.

Results

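Transcript levels after 24 h in difluoromethylornithine (DFMO) were compared with those of untreated cells. The comparison used the 3 arrays labelled as treated for 24 h and the 3 labelled as untreated controls, 6 of the 12 arrays of a time course, and was the only one with 3 arrays on each side. All arrays held total RNA from NIH3T3 (an established mouse fibroblast line) sorted for the G1 fraction. Treated cells were kept in 1 mM DFMO from a day after seeding, and untreated cells received no drug and belong to 0 h in the series text, so hours in culture cannot be told apart from hours in the drug. Another 2 arrays each at 12, 48 and 96 h helped to estimate the spread, and the 12 h arrays gave a second baseline. The labels call the arrays biological replicates without saying whether they came from separate cultures, so the p-values measure the spread between these samples.

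DFMO inactivates ornithine decarboxylase, which makes putrescine from ornithine and so supplies the precursor of spermidine and spermine. Cells adjust that enzyme through antizymes, which bind it and send it for degradation, and through antizyme inhibitors, which release it. Cells also control sterol synthesis by feedback. When sterols are scarce, SREBP factors leave the endoplasmic reticulum, are then cut, and switch on the genes of the mevalonate and sterol pathway. When sterols are plentiful, INSIG proteins hold SREBP back in the endoplasmic reticulum. SREBP acts at sterol regulatory elements together with the factor NF-Y, which binds the CCAAT box.

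At 24 h no gene passed the test over all genes, and the differences were small. By counts at an unadjusted p, the lists with the highest shares of lower genes included those of sterol synthesis and of chaperones of the endoplasmic reticulum. Of 19 sterol synthesis genes measured, 18 had a mean below the untreated one (57.5% of all genes did, and 46.8% of those with a mean level of at least 5), with a median log2 difference of -0.32. In the antizyme system Oaz2, an antizyme gene, was lower by 0.73 log2 units, and both antizyme inhibitor genes were higher. The largest difference among genes with separate arrays and an unadjusted p under 0.05 was that of Slc45a4, at -1.13. Genes of DNA replication and mitosis had medians at or near 0.

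The sterol genes are shown first with their promoters, because SREBP and NF-Y act through short motifs near the start of these genes. Below are the 250 bases before the start of Hmgcs1, the synthase of hydroxymethylglutaryl-CoA and the sole member with the searched sterol element, and of Mvd, Mvk and Nsdhl, the members with the largest mean differences. Capitals mark the CCAAT box on either strand (CCAAT or ATTGG) and the sterol element TCACNCCAC on either strand. Sequences are RefSeq's, of build GRCm38.p6, written 5′ to 3′ on the gene's strand. The Hmgcs1 window is chr13:119690101-119690350 on the plus strand, that of Mvd is chr8:122443423-122443672 on the minus strand, that of Mvk is chr5:114444019-114444268 on the plus strand and that of Nsdhl is chrX:72918271-72918520 on the plus strand.
Hmgcs1: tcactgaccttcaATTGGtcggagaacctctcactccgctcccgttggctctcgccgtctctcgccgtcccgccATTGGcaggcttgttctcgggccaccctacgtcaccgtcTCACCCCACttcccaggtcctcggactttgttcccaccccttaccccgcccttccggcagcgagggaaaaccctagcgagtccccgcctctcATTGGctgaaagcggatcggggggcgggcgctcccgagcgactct
Mvd: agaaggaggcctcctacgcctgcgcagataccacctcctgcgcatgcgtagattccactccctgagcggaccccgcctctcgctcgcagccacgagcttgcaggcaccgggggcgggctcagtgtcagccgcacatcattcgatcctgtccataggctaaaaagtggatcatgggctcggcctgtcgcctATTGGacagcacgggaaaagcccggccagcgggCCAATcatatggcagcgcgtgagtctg
Mvk: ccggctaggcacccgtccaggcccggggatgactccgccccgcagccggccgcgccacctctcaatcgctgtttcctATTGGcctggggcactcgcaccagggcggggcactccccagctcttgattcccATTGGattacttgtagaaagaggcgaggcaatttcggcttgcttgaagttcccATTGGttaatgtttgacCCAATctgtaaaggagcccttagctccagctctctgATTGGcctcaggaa
Nsdhl: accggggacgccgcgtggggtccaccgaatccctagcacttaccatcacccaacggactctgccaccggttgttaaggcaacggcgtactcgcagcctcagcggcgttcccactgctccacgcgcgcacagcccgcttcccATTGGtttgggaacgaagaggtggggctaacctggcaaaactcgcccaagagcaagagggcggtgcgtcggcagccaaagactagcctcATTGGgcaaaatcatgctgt

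Promoter windows from 250 bases before to 50 after the start were found for 16 of the 19 sterol genes measured, and not for Fdps, Fdft1 and Sqle. A CCAAT box lay in the windows of 15 of these 16 genes (93.8%), against 41.1% of 27025 genes with a window of the same length. The sterol element TCACNCCAC, which shares no letters with the CCAAT box where both were marked, lay in 1 of the 16, at position -137 from the start of Hmgcs1, against 1.44% of all genes. Boxes were frequent in other lists too, in 91.7% of 12 histone genes, 90% of 10 Txnip and arrestin-domain genes and 86.7% of 15 clock genes. They lay in 84.6% of 26 chaperone genes of the endoplasmic reticulum and 73.3% of 45 mitosis genes. On the histone and clock lists 0 genes were nominally lower. A match describes these letters in this window and is not evidence of binding.

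Values are log2 levels as the authors deposited them, so a difference of 1 is a 2-fold difference. In the text a gene is called nominally lower or higher when its unadjusted limma p is under 0.05, and its arrays are called separate when all 3 treated values lie beyond all 3 untreated ones. A listed gene counts as measured when a transcript cluster carries its symbol alone. By limma 0 of 19938 genes (0%) passed at an adjusted p under 0.05, with a smallest adjusted p of 0.229. Nominally, 1579 genes differed, of which 634 were higher (3.18% of all tested) and 945 lower (4.74%). Arrays were separate and higher for 893 genes (4.48%) and separate and lower for 1847 (9.26%), or 1527 and 980 with each array centred on its median. The split between higher and lower calls turned with the scaling. With each array centred on its median it was 998 higher and 554 lower (64.3% higher against 40.2%), and over the 8418 genes with a mean of at least 5 it was 369 and 240 in their own fit. In the fit over all genes, 6.11% of those 8418 genes were nominally higher and 4.66% nominally lower, and 5.88% were separate and lower. Leaving out untreated replicate 2 gave 364 nominally higher genes, and leaving out untreated replicate 3 gave 1014.

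Replicate arrays within the untreated and 24 h groups correlated across genes with r of 0.994 to 0.998. Untreated replicate 3 and 24 h replicate 3 deviated together from their group means (r = 0.581 across genes). Earlier work on these data had grouped 12 h replicate 2 with both, which was not checked again here. With those 3 arrays left out, 0 genes passed and 1059 were nominally higher and 898 lower. Of 12 fibroblast markers 11 had mean levels of at least 7.80 in untreated cells (that of Twist1), and Fap, at 3.44, was at the level of absent genes. The array medians of these markers ran from 9.97 to 10.07 in untreated cells and from 9.89 to 10.05 at 24 h. The 19 leukocyte markers had array medians of 3.60 to 3.65 in both groups and no marker mean above 4.48. Array medians were 3.48 to 3.52 for 13 epithelial and endothelial markers, with Krt14 the sole one well above that (8.83 and 8.43), and 3.53 to 3.67 for 11 adipocyte and muscle markers, with Lpl above that (7.72 and 7.80). The part of Krt14 and Lpl in the results was not tested. In RNA from many cells, a lower level in each cell and fewer cells with the transcript cannot be told apart.

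**Figure D1:**
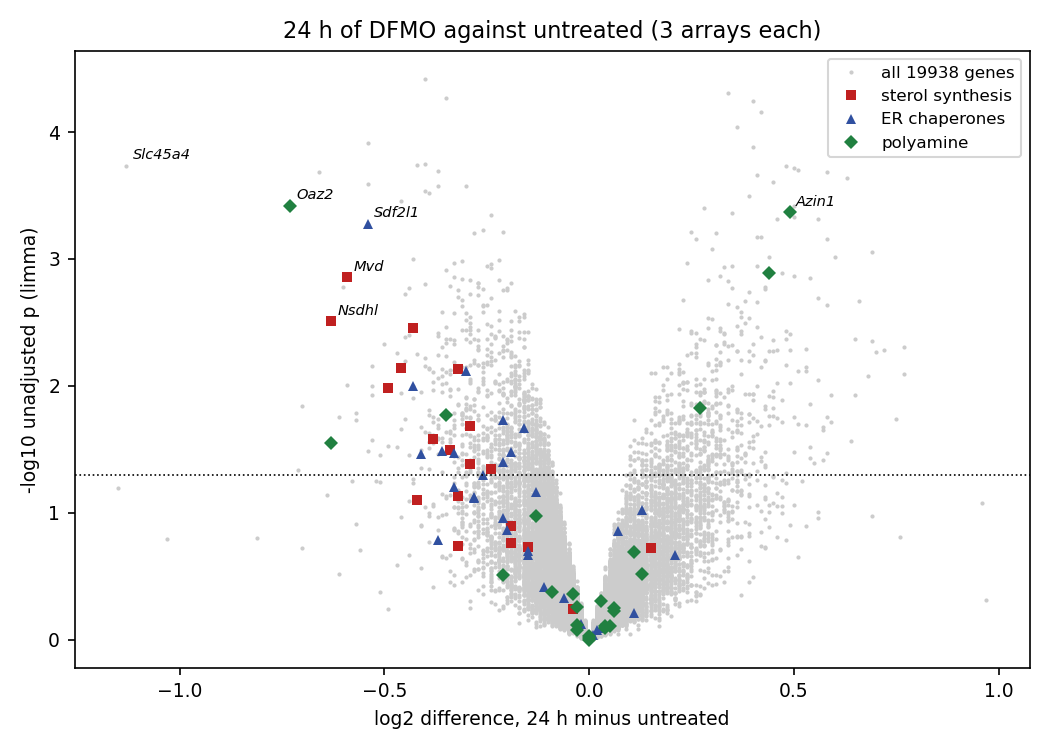
Each point is 1 of 19938 genes, with its log2 difference (24 h minus untreated) on the horizontal axis and -log10 of the unadjusted p of limma's fit across all genes on the vertical axis, where the dotted line marks the nominal threshold. Sterol synthesis genes (squares) sit left of 0 apart from Ebp, chaperones of the endoplasmic reticulum (triangles) lie mostly left of 0, polyamine genes (diamonds) lie on both sides, and no gene passed after adjustment.

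In the mevalonate part of the pathway, which makes squalene from acetyl-CoA, 9 of 11 listed genes were measured. Of these 9, 8 were nominally lower (88.9% against 4.74% of all genes), 0 were nominally higher, and 6 had separate arrays. Their median log2 difference was -0.38, against -0.02 over all genes. Measured from the untreated mean, the list's median was -0.45, -0.25 and -0.38 in the 3 treated arrays and 0.12, 0.00 and -0.13 in the 3 untreated ones. All 3 treated arrays therefore lay below all untreated ones, with 24 h replicate 2 the nearest to them. Leaving out either untreated replicate 1 or 24 h replicate 1 turned the count of 8 into 5. The list was chosen with results of these samples known, so its direction is not independent evidence.

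Mvd, the decarboxylase that yields isopentenyl diphosphate, had the smallest p of the list. Its untreated arrays stood at 7.88, 7.85 and 7.90 and its 24 h arrays at 7.10, 7.29 and 7.48. The groups were separate, the untreated arrays lay close together, and the treated ones were more spread. The log2 difference was -0.59 ± 0.13 (SE, 1.5-fold lower, unadjusted p = 0.0014, adjusted p = 0.384, n = 3 against 3), with a 95% interval from -0.88 to -0.29.

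Pmvk and Mvk, the kinases that phosphorylate mevalonate in turn, were lower by 0.46 and 0.49. Pmvk read 7.24, 7.12 and 6.99 in untreated cells and 6.44, 6.99 and 6.54 at 24 h, so replicate 2 of the treated group all but met the lowest untreated array. Mvk read 8.37, 8.08 and 7.87 in untreated cells and 7.40, 7.74 and 7.73 at 24 h. The groups were separate in both genes, with unadjusted p of 0.00726 and 0.0105 and adjusted p of 0.489 and 0.523.

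Idi1, the isomerase that follows, had untreated levels of 10.72, 10.63 and 10.39 and 24 h levels of 10.13, 10.28 and 10.05. Its difference was -0.43 ± 0.11 (adjusted p = 0.46), and a second transcript cluster of the gene gave -0.41. Fdps, farnesyl diphosphate synthase, read 8.99, 8.86 and 8.67 in untreated cells against 8.49, 8.59 and 8.47, a difference of -0.32 ± 0.10 (adjusted p = 0.49). Both genes had separate arrays, but the gap between the groups was smaller than the range of the untreated arrays.

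Hmgcs1, at the entry of the pathway, went from 10.38, 10.21 and 10.53 in untreated cells to 9.65, 10.17 and 10.15 at 24 h. Only 24 h replicate 1 stood well apart, and the difference of -0.38 ± 0.15 (unadjusted p = 0.0263) was -0.21 without that array (unadjusted p = 0.0892). Ggps1, which makes geranylgeranyl diphosphate, and Fdft1, squalene synthase, were nominally lower by 0.24 and 0.34 with overlapping arrays. Idi2, the remaining member, was at the floor of the array (3.69 and 3.65) and had a difference of -0.04.

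After squalene the shift was less even. Of 12 listed genes 10 were measured, and 3 were nominally lower (30%, against 4.74% of all genes) and 0 higher. The 10 genes had a median of -0.29. The list's median was -0.44, 0.02 and -0.28 in the 3 treated arrays, so 24 h replicate 2 lay at the untreated mean. Leaving out 24 h replicate 1 moved the median difference to -0.16. Without 24 h replicate 2, 7 members were nominally lower, while 1 member was when any of the remaining arrays except untreated replicate 2 was left out.

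Nsdhl, a dehydrogenase that removes carbon from the sterol ring, read 9.44, 9.30 and 8.94 in untreated cells and 8.45, 8.87 and 8.48 at 24 h. Its arrays were separate and its difference of -0.63 ± 0.16 (1.54-fold lower, unadjusted p = 0.00307, adjusted p = 0.46) was the most negative of all 19 sterol genes. Msmo1, the methyl sterol oxidase that acts before it, read 11.73, 11.58 and 11.69 against 11.23, 11.46 and 11.43, a difference of -0.29 ± 0.12 (unadjusted p = 0.0416) with separate arrays. Lss, lanosterol synthase, shows the uneven array best: its treated levels were 8.27, 9.19 and 8.57 against untreated ones of 9.21, 9.13 and 8.94, a difference of -0.42 with an unadjusted p of 0.0797. Ebp, a sterol isomerase, was the one member with a mean above the untreated one (0.15, unadjusted p = 0.189).

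**Figure D2:**
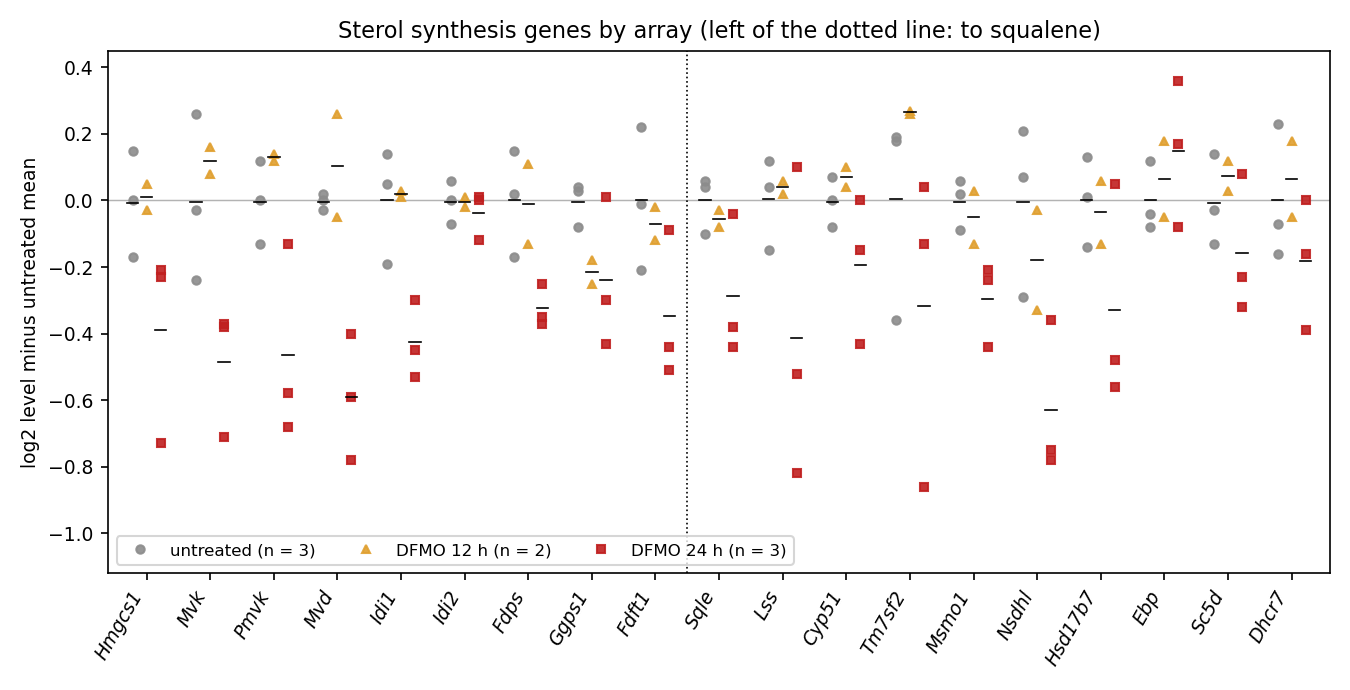
Each point is 1 array, drawn as its log2 level minus the untreated mean of that gene, for 19 sterol synthesis genes in untreated cells (circles, n = 3), at 12 h (triangles, n = 2) and at 24 h (squares, n = 3), with short bars at the means. At 24 h most means lie below 0 and 1 square, often that of replicate 2, lies nearest to the untreated circles, while the 12 h triangles lie around 0.

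The 12 h arrays give a second baseline for the same 24 h arrays. Between 12 and 24 h, 0 of 19938 genes (0%) passed the limma test at an adjusted p under 0.05 (smallest adjusted p = 1), and nominally 169 were higher (0.848%) and 232 lower (1.16%), while arrays were separate for 5.45% higher and 6.9% lower. With the replicate number as a block these were 546 and 756, without 12 h replicate 1 534 and 797, and without 24 h replicate 3 450 and 451. The higher count was 266 without 12 h replicate 2. Of the 19 sterol genes 8 were nominally lower and 0 higher against 12 h, with a median of -0.29. Mvd read 8.14 and 7.83 at 12 h and was lower at 24 h by 0.70 (unadjusted p = 0.000941), Pmvk by 0.59, Mvk by 0.61 and Idi1 by 0.45. Against untreated cells the median of the 9 mevalonate genes was 0.02 (12 h), -0.38 (24 h) and -1.49 (48 h), all from the same 3 untreated arrays. The count of 8 against 12 h was 4 when 12 h replicate 1 was left out, 15 for 24 h replicate 2 and 5 for 24 h replicate 1.

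The list of genes that regulate SREBP or move cholesterol had a median nearer 0 than the enzymes; the difference between the lists was not tested. Of 21 listed genes 17 were measured, with a median of -0.09. Nominally 2 were lower (11.8%, against 4.74% of all genes) and 1 higher (5.88% against 3.18%). Arrays were separate and lower for 3, where 9.26% of all genes were. Insig1, the SREBP-induced brake on SREBP, read 10.77, 10.61 and 10.60 in untreated cells and 10.12, 10.47 and 10.40 at 24 h, a difference of -0.33 ± 0.14 (unadjusted p = 0.0401) with separate arrays. Insig2, its relative that is not switched on by SREBP in the same way, was higher by 0.37 ± 0.13 (unadjusted p = 0.0205), with overlapping arrays. The difference between the opposite values of Insig1 and Insig2 was not tested. Srebf2, the SREBP gene most tied to sterols, had a difference of -0.12 (95% interval -0.42 to 0.18) and Srebf1 one of -0.20. With the replicate number as a block 4 members were nominally lower, as when 24 h replicate 2 was left out, and the median ran from -0.13 to -0.01 over the fits without 1 array. None was lower when untreated replicate 1 or 2, or 24 h replicate 1, was left out.

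Fatty acid synthesis, which SREBP also drives, had 5 of 22 measured genes nominally lower (22.7%, against 4.74% of all genes) and 0 higher. The list's median was -0.16. Acly, which makes cytosolic acetyl-CoA from citrate, read 10.43, 10.34 and 10.19 in untreated cells and 9.72, 10.09 and 9.83 at 24 h, a difference of -0.44 ± 0.10 (unadjusted p = 0.00171, adjusted p = 0.384). The fatty acid elongase gene Elovl6 read 9.47, 9.42 and 9.30 against 8.82, 9.23 and 8.78, lower by 0.45 ± 0.13, and the desaturase gene Fads2 was lower by 0.29 ± 0.10. All 3 had separate arrays, with replicate 2 again the highest of the treated ones. The other nominally lower members were Scd1, a stearoyl-CoA desaturase, and Me1, malic enzyme, with overlapping arrays. Leaving out untreated replicate 1 gave a count of 3, leaving out 24 h replicate 1 gave 2, and leaving out 24 h replicate 2 gave 8. The median was -0.07 without 24 h replicate 3. Pcyt2, of phosphatidylethanolamine synthesis and outside these lists, was among the 5 lower genes of largest difference (7.42, 7.39 and 7.24 against 6.50, 7.05 and 6.69, -0.60 ± 0.14).

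Among the polyamine genes, those that differed nominally encode proteins that regulate, oxidise, acetylate or export. The synthesis gene Srm and the Odc1 cluster kept had differences near 0, while a second Odc1 cluster was nominally higher by 0.19. Of 29 listed genes 24 were measured, with a median of -0.00, 3 nominally higher and 3 nominally lower, each 12.5% of those measured. Of all genes 3.18% were nominally higher and 4.74% nominally lower. Clusters of Oaz1 and Sms carry more than 1 symbol and were set aside, and Amd1, Amd2 and Paox were not analysed here. The count of lower members was 1 without untreated replicate 1.

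Odc1, the gene of the drug's target, read 9.61, 9.73 and 9.79 in untreated cells and 9.81, 9.56 and 9.85 at 24 h. The groups overlapped, the difference was 0.04 ± 0.14 (unadjusted p = 0.81), and the 95% interval from -0.29 to 0.36 leaves room for a small difference in either direction. A second cluster of the gene gave 0.19 (unadjusted p = 0.0471), and the main one turned to -0.01 without untreated replicate 1 and -0.02 without 24 h replicate 3. DFMO acts on the enzyme, so this transcript does not report whether inhibition took place. Srm, spermidine synthase, had a difference of -0.03 (95% interval -0.30 to 0.25), and Eif5a, a translation factor modified with hypusine, which is built from spermidine, had one of -0.00.

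Oaz2 had untreated levels of 5.89, 5.68 and 6.02, 12 h levels of 5.65 and 6.17, and 24 h levels of 5.09, 5.11 and 5.19. The 24 h arrays lay close together and below every untreated and 12 h array. The difference from untreated was -0.73 ± 0.14 (1.66-fold lower, unadjusted p = 0.000379, adjusted p = 0.261), and that from 12 h was -0.78 (unadjusted p = 0.000552, adjusted p = 1).

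Azin1, which frees ornithine decarboxylase from antizyme, read 10.00, 10.12 and 10.16 in untreated cells, 10.36 and 10.60 at 12 h, and 10.50, 10.71 and 10.53 at 24 h. All treated arrays of both times lay above the untreated ones, and the 24 h difference was 0.49 ± 0.09 (1.4-fold higher, unadjusted p = 0.00043, adjusted p = 0.262). Azin2, its relative, read 5.13, 5.02 and 4.81 in untreated cells and 5.36, 5.44 and 5.47 at 24 h, higher by 0.44 ± 0.10 (unadjusted p = 0.00128, adjusted p = 0.384). Antizyme 2 and both antizyme inhibitors thus had separate arrays, in opposite directions.

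Smox, spermine oxidase, read 6.33, 6.25 and 5.93 in untreated cells and 5.00, 6.01 and 5.63 at 24 h. The groups overlapped through treated replicate 2, and the difference of -0.63 ± 0.24 (unadjusted p = 0.0281) was -0.35 without 24 h replicate 1. Sat1, which acetylates spermidine and spermine for breakdown and export, was lower by 0.35 ± 0.12 (unadjusted p = 0.0169), also with overlap. Atp13a2, a lysosomal polyamine exporter at a low level, read 4.42, 4.36 and 4.28 against 4.58, 4.66 and 4.63, higher by 0.27 ± 0.09 (unadjusted p = 0.0149).

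Slc45a4, a membrane transporter described as carrying sugars and, in later work, polyamines, was outside the polyamine list and came up by its p. It read 5.90, 6.16 and 5.66 in untreated cells, 5.04 and 4.87 at 12 h, and 4.92, 5.00 and 4.42 at 24 h. Every array at 12 and 24 h lay below every untreated one, by more than the range of the untreated arrays. The 24 h difference was -1.13 ± 0.19 (2.18-fold lower, unadjusted p = 0.000184, adjusted p = 0.229), with a 95% interval from -1.55 to -0.70. It was the 1 gene of all 19938 with a difference of at least 2-fold, an unadjusted p under 0.05 and separate arrays. Against untreated its 12 h difference was -0.96, that of 48 h was -1.19 (limma adjusted p = 0.0127) and that of 96 h was -1.05 (adjusted p = 0.0056), so the level at 24 h was close to that of every other time in the drug.

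**Figure D3:**
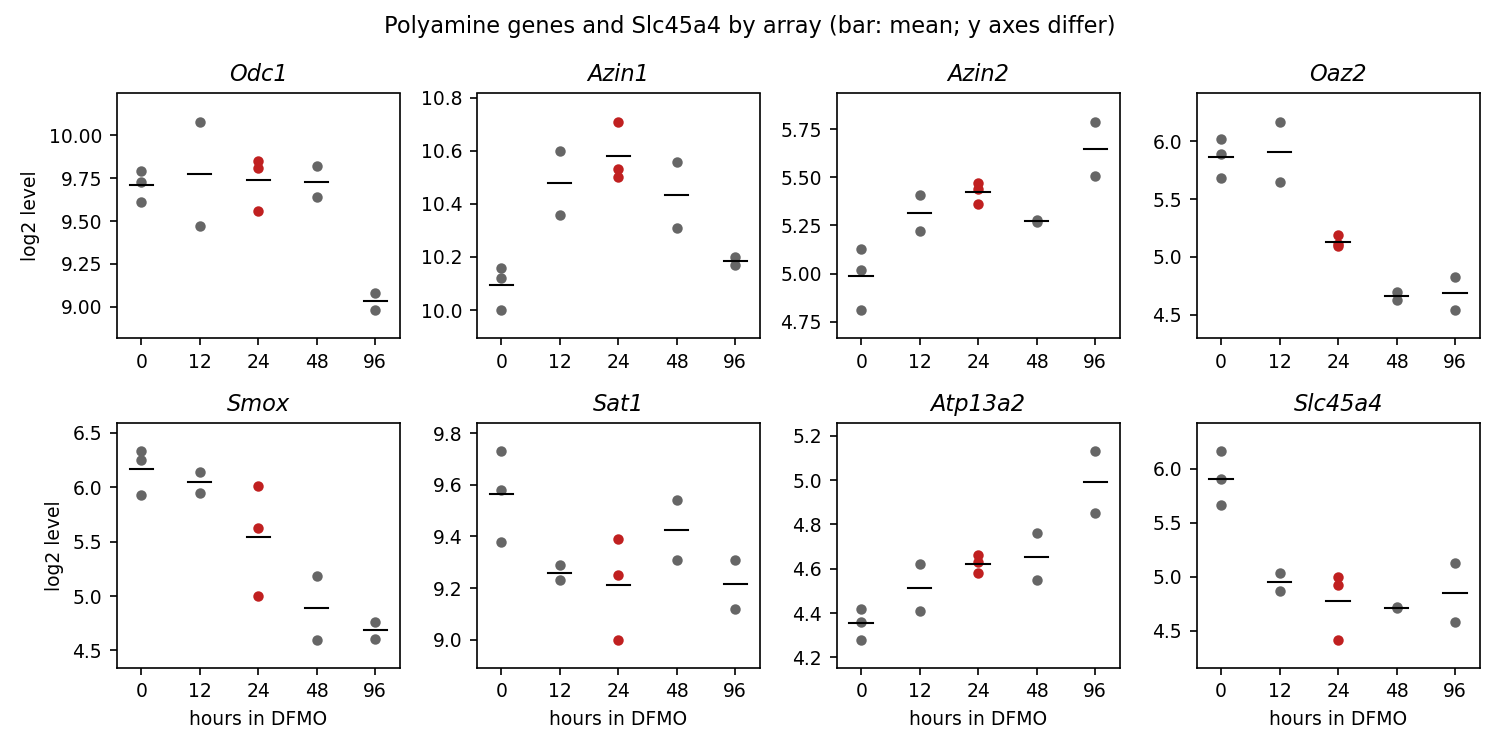
Each panel plots the log2 level of 1 gene against hours in 1 mM DFMO, with a point per array (24 h in red), a bar at the mean and its own vertical axis. Odc1 (the cluster kept for it) at 24 h overlaps the untreated arrays, Azin1 and Slc45a4 are already apart from them at 12 h, and Oaz2 is apart from 24 h.

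Chaperones and folding enzymes of the endoplasmic reticulum and the sensors of unfolded protein there had a share of nominally lower genes above that of all genes, as did several lists described after them. Of 30 genes, all measured, 10 were nominally lower (33.3%, against 4.74% of all genes) and 0 higher, with a median of -0.19. Of the 30, 11 were separate and lower and 1 separate and higher, against 9.26% and 4.48% of all genes. The median was -0.21, -0.14 and -0.12 in the treated arrays and -0.07, -0.06 and 0.10 in the untreated ones, so the groups were separate but untreated replicate 3 stood high. Without that array 3 members were nominally lower, with a median of -0.12. The count was 6 without 24 h replicate 1, 6 without the 3 arrays that deviated together and 16 with the replicate number as a block.

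Sdf2l1, a cofactor of the chaperone BiP, read 8.40, 8.51 and 8.53 in untreated cells, 8.30 and 8.27 at 12 h, and 7.69, 8.15 and 7.98 at 24 h. Its difference was -0.54 ± 0.11 (unadjusted p = 0.000527, adjusted p = 0.277), and its arrays were separate. Hyou1, a chaperone of the same compartment, read 9.01, 9.20 and 9.00 against 8.44, 8.84 and 8.63, lower by 0.43 ± 0.13. Calr, calreticulin, read 11.31, 11.28 and 11.54 against 10.96, 11.12 and 11.15, lower by 0.30 ± 0.09 with untreated replicate 3 the highest.

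Pdia4, a disulfide isomerase, was lower by 0.36 ± 0.14 (9.80, 9.89 and 10.17 against 9.30, 9.77 and 9.71), and by 0.25 without untreated replicate 3 (unadjusted p = 0.125) or 0.22 without 24 h replicate 1 (unadjusted p = 0.129). Manf and Dnajb11, a secreted folding factor and a co-chaperone of BiP, were lower by 0.21 and 0.16, with separate arrays. Hspa5, which encodes BiP itself, overlapped between groups, with levels of 11.25, 11.36 and 11.72 against 10.88, 11.31 and 11.32 and a difference of -0.28 (unadjusted p = 0.0748). Xbp1, a transcription factor of this response, likewise had a difference of -0.28 with overlapping arrays. Canx and Pdia3, which also serve glycoprotein folding, had differences of -0.06 and -0.02.

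Among 28 cytosolic and mitochondrial chaperone genes measured, 6 were nominally lower (21.4%, against 4.74% of all genes) and 1 higher. The list's median was -0.06. Bag3, a co-chaperone of protein clearance, read 7.05, 7.03 and 7.13 in untreated cells and 6.90, 6.67 and 6.60 at 24 h, lower by 0.35 ± 0.09 (unadjusted p = 0.00428). Hspa4l was lower by 0.37, Hspb8 by 0.31 and Stip1, which links Hsp70 and Hsp90, by 0.20, and each had separate arrays. Hspe1, the mitochondrial co-chaperonin, was higher by 0.29 ± 0.08 (10.94, 10.95 and 11.04 against 11.22, 11.44 and 11.14). Its partner Hspd1 had a difference of 0.01.

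In glycolysis 5 of 19 genes measured were nominally lower (26.3%, against 4.74% of all genes) and 0 higher. The list's median difference was -0.12, and these values rested largely on 24 h replicate 1. The median was -0.30, 0.06 and -0.04 in the treated arrays, and without the first of these the count was 1 and the median difference 0.00. Leaving out untreated replicate 1 gave 2, and untreated replicate 3 gave 3. Pfkl, the liver-type phosphofructokinase, had the most negative mean difference of the genes named for size, with levels of 8.92, 8.81 and 8.71 in untreated cells and 7.68, 8.55 and 8.09 at 24 h. Its difference was -0.70 ± 0.24 (unadjusted p = 0.0145, adjusted p = 0.545), and -0.49 without 24 h replicate 1. Ldha, lactate dehydrogenase A, read 11.74, 11.72 and 11.71 against 11.30, 11.51 and 11.50, lower by 0.29 ± 0.09 with tight untreated arrays. In the pentose phosphate pathway Pgd was lower by 0.30 ± 0.08 and Tkt by 0.21 ± 0.08, 2 of 6 genes measured, or 1 without untreated replicate 1 or 24 h replicate 1. P4ha1, a collagen prolyl hydroxylase on the hypoxia list, was lower by 0.45 ± 0.10 (9.22, 9.20 and 9.28 against 8.54, 8.90 and 8.92), one of 2 nominally lower of 16 there (4 without 24 h replicate 3).

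**Figure D4:**
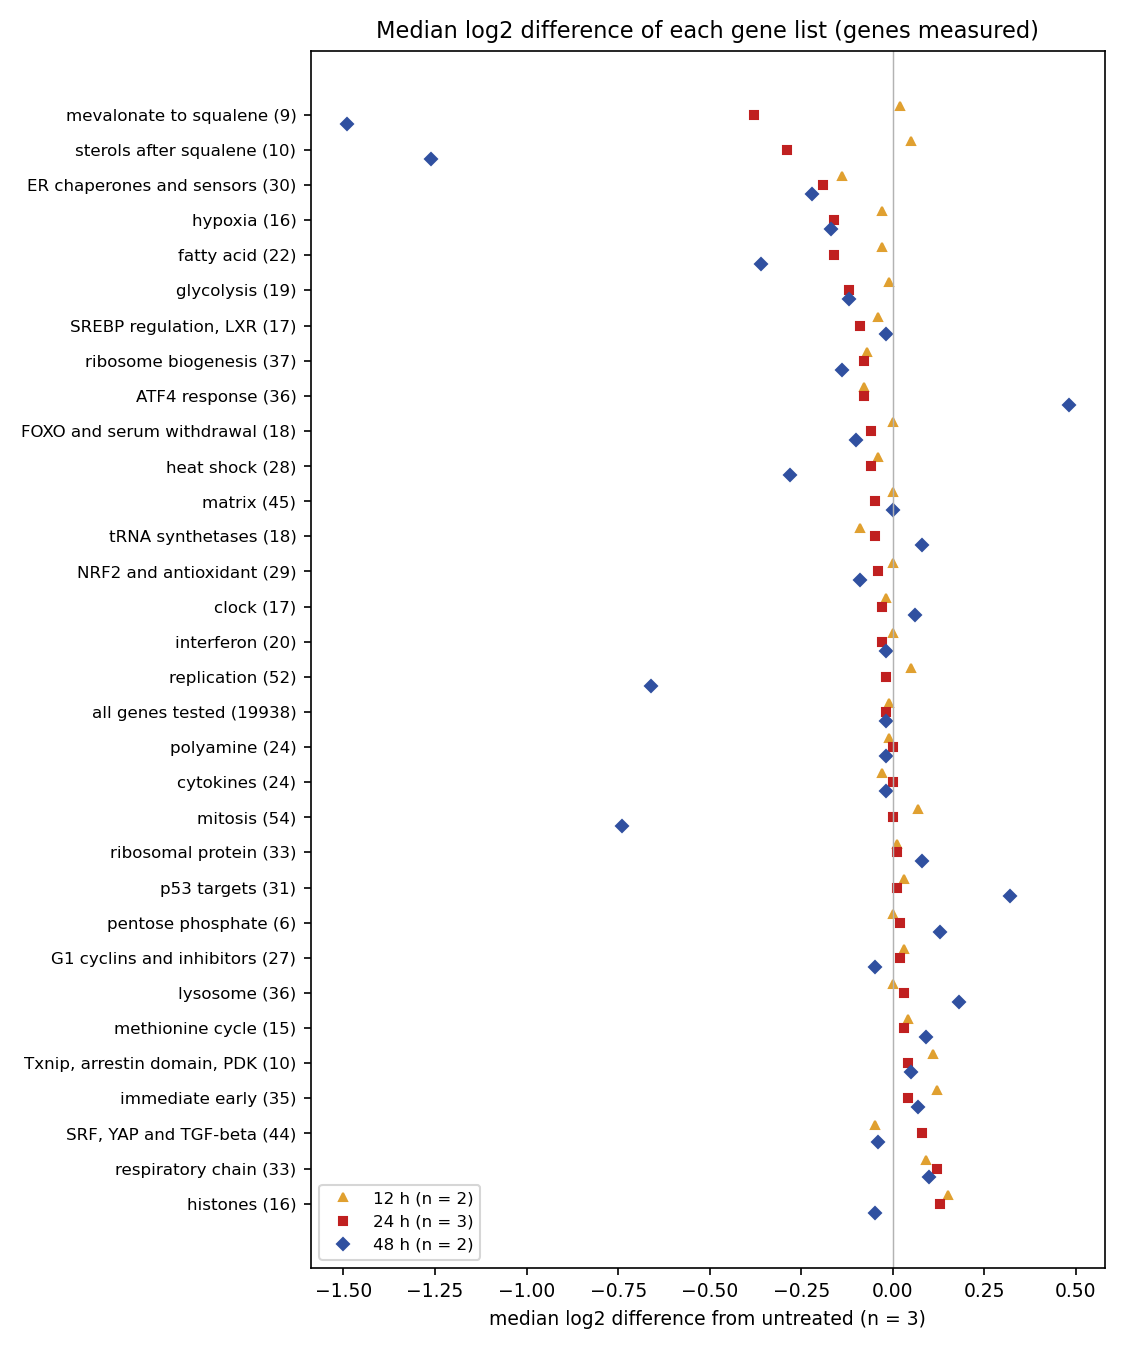
Each row is a gene list with its number of measured genes, and the points give the median log2 difference from untreated (n = 3) at 12 h (triangles, n = 2), 24 h (squares, n = 3) and 48 h (diamonds, n = 2). At 24 h the medians run from -0.38 for mevalonate genes to 0.13 for histones, and replication and mitosis genes lie at -0.02 and -0.00 at 24 h and at -0.66 and -0.74 at 48 h.

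The genes of DNA replication and mitosis, which differed at later times, gave counts near those of all genes at 24 h. Of 52 replication genes 1 was nominally higher and 1 lower (1.92% each), with a median of -0.02. Mcm2, a subunit of the replicative helicase, read 9.61, 9.77 and 9.77 against 9.65, 9.75 and 9.77, a difference of 0.01 (95% interval -0.16 to 0.18), and Pcna, the sliding clamp, had one of 0.08. Pold1, the catalytic subunit of polymerase delta, was nominally higher by 0.31 ± 0.10 with separate arrays, and Ccne1, cyclin E1, nominally lower by 0.29. With 1 array left out these counts ran from 0 (untreated replicate 1, for both) to 3 higher (untreated replicate 3) and 2 lower (24 h replicate 1). Of 54 mitosis genes 1 was higher and 3 lower, with a median of -0.00. The 3 were Cenpe, Ncapg and Smc2, a kinetochore motor and 2 condensin subunits, all with overlapping arrays, and Kif4, a chromosome motor, was the higher one. The lower count was 5 with the replicate block. Leaving out untreated replicate 1 gave 5, 24 h replicate 3 gave 6, and untreated replicate 2 or 3 or 24 h replicate 2 gave 1. At 48 h the medians of these lists were -0.66 and -0.74, and limma called 34 and 33 members lower at an adjusted p under 0.05 (3.17% of all genes were, and 2.65% were called higher) and 0 higher.

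Of 27 G1 cyclins and inhibitors 2 were nominally higher (7.41%, against 3.18% of all genes) and 0 lower. The higher ones were Rbl1, the pocket protein p107 (0.31 ± 0.10), and Mxd3, a MYC antagonist (0.27 ± 0.09). Cdkn1a was not tested, since its cluster carries more than 1 symbol. Of 31 p53 targets 2 were nominally higher and 2 lower (6.45% each, against 3.18% and 4.74% of all genes). Rps27l was at 0.34 (0.21 without untreated replicate 3) and Sesn1 at -0.34. These small counts moved by 1 or more in most of the fits that left out an array, and the lower count of the G1 list was 3 without 24 h replicate 3.

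The ATF4 list, which had a median of 0.48 at 48 h, had one of -0.08 at 24 h, and of its 36 members 1 was nominally higher, Atf4 itself, and 0 were nominally lower. The lower count was 2 with the replicate block in all 12 arrays, 10 with it in the 6 arrays alone, and 0 to 2 with 1 array left out, and the median was 0.03 without untreated replicate 3 and -0.20 without 24 h replicate 3. Atf4, a transcription factor of the amino acid response, read 8.93, 9.09 and 8.80 in untreated cells and 9.29, 9.27 and 9.14 at 24 h, a difference of 0.30 ± 0.07 (unadjusted p = 0.00296, adjusted p = 0.46). Among genes it is known to induce, Asns had a difference of -0.03, Ddit3 of 0.16 and Trib3 of -0.57 (unadjusted p = 0.123, 7.46, 7.44 and 8.13 against 6.85, 6.81 and 7.65). Of the 36 members, 3 were separate and lower and 1 separate and higher, where 9.26% and 4.48% of all genes were, so these counts do not set the list apart.

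Of 36 lysosome and autophagy genes 5 were nominally higher (13.9%, against 3.18% of all genes) and 2 lower (5.56% against 4.74%). The list's median was 0.03. Hexa, a hydrolase of gangliosides, read 8.76, 8.74 and 9.04 in untreated cells and 9.22, 9.27 and 9.14 at 24 h, higher by 0.36 ± 0.09. The proton pump subunit genes Atp6v1h and Atp6v0d1 were higher by 0.35 and 0.31, and Tfe3, a transcription factor of lysosomal genes, was lower by 0.36, all with separate arrays. Gabarapl2 (0.21) and Gabarapl1 (-0.49), relatives that coat autophagosomes, had values of opposite sign, a contrast that was not tested, and a second cluster of Gabarapl2 had -0.28. Gabarapl1 was -0.26 without 24 h replicate 1 (unadjusted p = 0.0975). Leaving out untreated replicate 1 gave 3 higher, and untreated replicate 2 or 24 h replicate 3 gave 2.

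Genes of the respiratory chain were higher on average in 29 of 33 cases, where 42.5% of all genes and 53.2% of better-measured genes were. Yet 2 were nominally higher (6.06%) and 0 lower, where 3.18% of all genes and 6.11% of better-measured genes were nominally higher. Uqcrb, a subunit of complex III, was higher by 0.32 ± 0.10 and Ndufb5, of complex I, by 0.23 ± 0.07 (0.15 without untreated replicate 2). The list's median moved between arrays of the same group by as much as its difference of 0.12, from -0.11 to 0.18 in untreated cells and from 0.02 to 0.20 at 24 h. Leaving out untreated replicate 3 gave 10 higher members, 24 h replicate 1 gave 6 and 24 h replicate 2 gave 5, and the replicate block gave 4. Its median ran from 0.06 (untreated replicate 2 left out) to 0.23 (untreated replicate 3 left out).

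Of 16 histone genes 3 were nominally higher (18.8%, against 3.18% of all genes) and 0 lower. The list's median was 0.13, or 0.04 without 24 h replicate 1. H2ax, the variant marked at DNA breaks, read 6.79, 6.77 and 6.80 in untreated cells, 7.12 and 7.40 at 12 h, and 7.20, 7.24 and 7.15 at 24 h. Its difference was 0.41 ± 0.08 (unadjusted p = 0.000677, adjusted p = 0.298), larger than the range of either group. H2bc4 was higher by 0.68 ± 0.21 (5.54, 5.74 and 6.13 against 6.90, 6.31 and 6.24), with H1f2 the third. The count was 5 without 24 h replicate 2 or 24 h replicate 3.

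On the list of Txnip, arrestin-domain and related genes, 2 of 10 measured were nominally higher (20%, against 3.18% of all genes). On the same list 1 was nominally lower (10% against 4.74%), and the median was 0.04. The higher ones were Txnip, an arrestin-like protein that limits glucose uptake, by 0.59 ± 0.19 (7.68, 7.60 and 7.80 against 7.82, 8.50 and 8.52), and its relative Arrdc4 by 0.22 ± 0.08. Among 35 immediate early genes Jun was higher by 0.33 ± 0.09, Spry1 by 0.24 ± 0.05 and Klf6 by 0.27, and Junb and Arc were lower by 0.17 and 0.24. Nominally 3 of the 35 were higher (8.57%, against 3.18% of all genes) and 2 lower (5.71% against 4.74%). The higher count was 6 with the replicate block, 5 without untreated replicate 3 and 7 without 24 h replicate 3. Of 29 antioxidant genes 1 was nominally higher (3.45%, against 3.18% of all genes) and 3 lower (10.3% against 4.74%). Gpx1 was higher by 0.48 ± 0.08, Gstm1 lower by 0.53 ± 0.17 and Hmox1, heme oxygenase, lower by 0.45 ± 0.16. The lower count was 1 without untreated replicate 2 or 24 h replicate 2, and the higher count was 3 with the replicate block. No member of the clock list (17 genes) or the interferon list (20) was nominally higher or lower.

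The genes with the smallest p were mostly outside these lists. Among lower genes Tab2, an adaptor of the kinase TAK1, had the smallest, with untreated arrays at 9.38, 9.49 and 9.41 and 24 h arrays at 9.07, 9.05 and 8.94. Its difference was -0.40 ± 0.06 (unadjusted p = 3.81e-05, adjusted p = 0.229). Acin1, a chromatin condensation and splicing factor, was lower by 0.35 ± 0.05 (8.20, 8.26 and 8.28 against 7.94, 7.85 and 7.89). Men1, the tumour suppressor menin, was lower by 0.54 ± 0.10 (8.01, 7.95 and 8.08 against 7.41, 7.55 and 7.46) and N4bp1, a ribonuclease that restrains innate immune signalling, by 0.66 ± 0.11 (8.27, 8.30 and 8.55 against 7.71, 7.52 and 7.91). In these 4 genes the distance between the groups exceeded the range within either, except in N4bp1. The rest of the 10 were Olfr1252, Arhgef5, Emsy, Slc45a4, Tmem230 and Ankle2, with differences of -0.54 to -0.30 apart from Slc45a4.

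Among higher genes Arsg, a lysosomal sulfatase, had the smallest p at a level near the floor, 4.01, 4.04 and 3.99 against 4.33, 4.44 and 4.29 (0.34 ± 0.05, unadjusted p = 4.92e-05, adjusted p = 0.229). Zhx1, a zinc finger and homeobox repressor, was higher by 0.42 ± 0.06 (6.93, 6.81 and 6.83 against 7.25, 7.25 and 7.33). Gpx1, the selenoenzyme that reduces hydrogen peroxide, read 8.52, 8.44 and 8.41 in untreated cells, 8.69 and 8.99 at 12 h, and 8.87, 8.89 and 9.04 at 24 h. F3, tissue factor, was higher by 0.58 ± 0.10 (7.54, 7.71 and 7.78 against 8.46, 8.14 and 8.17). Mrpl41, a mitochondrial ribosomal protein, was higher by 0.40, with a second cluster at 0.17, and Ccl25 by 0.40, with a second cluster at -0.10. The others were Nemp2, Gpr137b, Hivep2 and Morrbid (0.36 to 0.51), of which Gpr137b can share signal with a pseudogene and is uncertain.

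**Figure D5:**
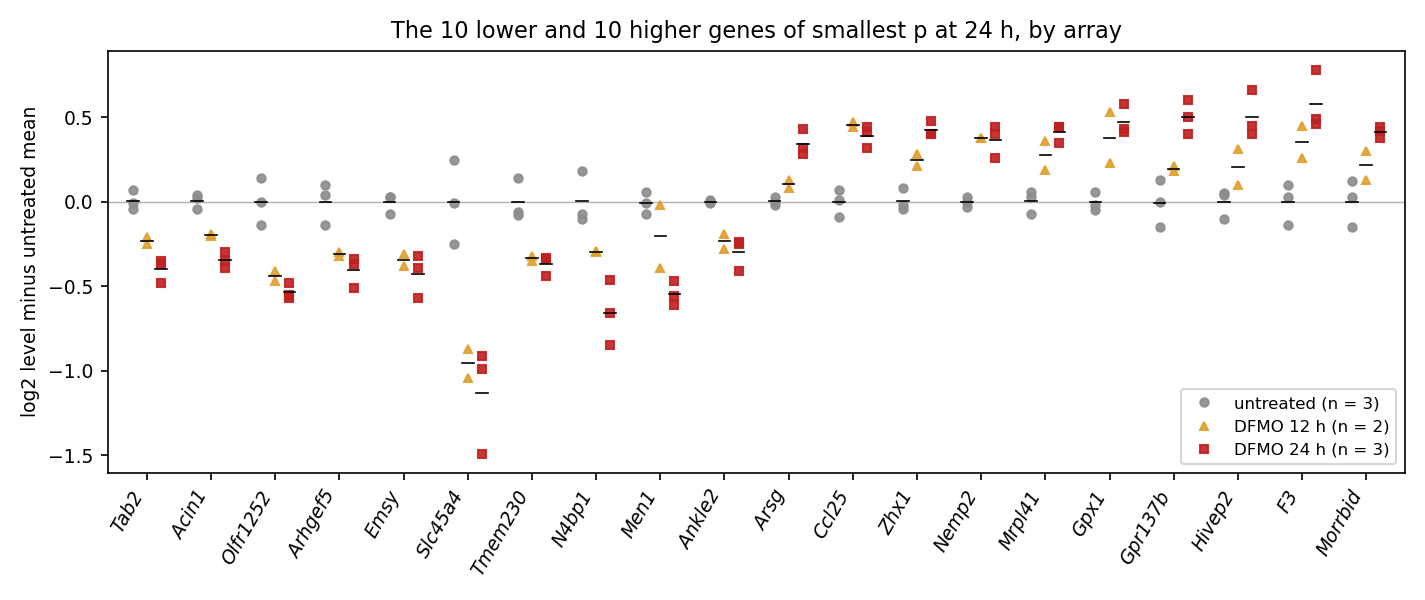
Each point is 1 array as its log2 level minus the untreated mean, for the 10 lower and 10 higher genes of smallest p at 24 h, in untreated cells (circles, n = 3), at 12 h (triangles, n = 2) and at 24 h (squares, n = 3), with bars at the means. The 24 h squares lie beyond the untreated circles in all 20 genes, as the choice of these genes required.

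Ranked by size among nominal genes with separate arrays and a mean of at least 6, the higher genes were Cirbp, a cold-inducible RNA-binding protein (0.77 ± 0.21), Xdh, xanthine dehydrogenase (0.75 ± 0.26), Ublcp1 (0.72), Snord52 (0.70) and Itfg2 (0.69 ± 0.14). Cirbp read 6.54, 6.63 and 6.53 in untreated cells and 6.91, 7.86 and 7.24 at 24 h, so its treated arrays spread more widely than its difference, which was 0.50 without 24 h replicate 2. Itfg2, part of a complex that restrains mTORC1, read 5.69, 6.10 and 6.08 against 6.57, 6.71 and 6.67. The lower genes were Pfkl, N4bp1, Nsdhl, Nadk2, a mitochondrial NAD kinase (8.49, 8.23 and 8.26 against 7.37, 8.16 and 7.61), and Pcyt2. At a cutoff of 1.5-fold, 16 genes were nominally higher and 11 nominally lower.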

How the data were processed

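Total RNA of the 12 samples was labelled with an Affymetrix whole-transcript kit and hybridised to MoGene 1.0 ST arrays, per the labels' protocols. The authors deposited log2 values for 35399 transcript clusters, made with RMA in Partek per the submitters' processing notes. Versions and the genome build of the array are not given in the sources used here. Clusters took symbols from the platform annotation: 21789 had 1 symbol, 1621 several and 11989 none. Clusters with 1 symbol were kept, the one of highest mean where a gene had several (999 genes), which left 19938 genes.

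Groups came from the sample titles. With limma 3.58.1 in R 4.3.3, each group had its own mean in a fit of the 12 arrays, and 24 h was contrasted with untreated and with 12 h, with eBayes and Benjamini-Hochberg adjustment over all genes. Unadjusted p, adjusted p and 95% intervals are from this fit. It was also run on simulated data with independent noise in every gene and array. That setting lacks arrays that deviate together, as some did here, so it cannot show how the p-values behave with them. The number of arrays limits the precision.

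The members and gene lists were chosen with earlier results of these data known. Genes were named by rule: the 10 of smallest p in each direction with separate arrays, the 5 largest in each direction with a mean of at least 6 over the 6 arrays, up to 6 nominal members of each list, and Odc1 with the nominal polyamine genes. RIKEN, predicted and locus names were passed over. Other genes named in the text were added for their role after their values were seen.

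Replicate numbers are shared by the groups in the titles. Deviations of same-numbered untreated and 24 h arrays correlated across genes at r = 0.153, 0.287 and 0.581, all above 0.1, and those of unlike numbers ran from -0.423 to 0.235. Unlike numbers passed 0.1 too: untreated replicate 1 with 24 h replicate 2 (r = 0.235) and untreated replicate 2 with 24 h replicate 1 (r = 0.126). The rule therefore cannot decide whether the numbers pair the samples, and the main fit used no pairing. A fit with the replicate number as a block was run as an alternative, beside other scalings, filters, array sets and fits without each array.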

Additional observations from a re-analysis of the deposited data

Results flagged for a closer look

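A fit over all 35399 transcript clusters called 11 of them at 24 h (limma, adjusted p under 0.05, 0.0311%), of which 10 carry no gene symbol and so entered no comparison of the report. These unnamed clusters, 7 higher and 3 lower, lie outside the gene comparison and may not be separate signals. Cluster 10368670 read 10.62, 10.61 and 10.55 in untreated cells, 11.07 and 11.40 at 12 h, and 11.53, 11.66 and 11.47 at 24 h, higher by 0.96 ± 0.09 (adjusted p = 0.0237). Cluster 10368748 was higher by 0.92 ± 0.08 (adjusted p = 0.0237). Cluster 10453316 read 4.76, 4.65 and 4.67 against 4.09, 4.03 and 3.93, lower by 0.68 ± 0.07 (adjusted p = 0.0325), and cluster 10341302 was lower by 0.54 ± 0.06 (adjusted p = 0.038). The 7 higher clusters correlated with each other at r of at least 0.989 over the 12 arrays, a description of clusters chosen for the same difference. Their levels were also alike. Clusters 10368670, 10368748, 10459389, 10512935 and 10447510 had untreated means of 10.53 to 10.66 and 24 h means of 11.38 to 11.59. Clusters 10538932 and 10538927 had untreated means of 7.99 and 7.85 and 24 h means of 8.87 and 8.69. Whether such clusters measure the same sequence was not tested. The called cluster with a symbol was the second cluster of Arhgef5 (-0.58 ± 0.07, adjusted p = 0.038); the one kept for the gene comparison gave -0.40 ± 0.07.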

How the results depend on the processing

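Every fit over genes called 0 at the adjusted threshold (1579 at an unadjusted limma p under 0.05), with the replicate number as a block included, and the block changed no call; the fit over all transcript clusters called 11. The smallest adjusted p among fits over genes ran from 0.126 to 0.574. Nominally higher genes numbered 998 with centred arrays, 369 with a mean of at least 5, 986 over all clusters, 1059 without the 3 arrays that deviated together (an alternative chosen with the data known), 1048 with the replicate block in the 6 arrays, and 364 to 1014 with 1 array left out. Nominally lower genes numbered 554, 240 and 1830 in the first 3 of these and 654 to 1044 with 1 array left out. Separate and higher arrays numbered 1527, 581 and 1498 under centring, the filter and all clusters, and 1430 to 2324 with 1 array left out; separate and lower ones 980, 495 and 3478, and 2542 to 3567. With an array left out, fewer arrays have to be separate, which by construction raises those counts; for the other counts the cause was not tested.

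Nominally lower mevalonate genes numbered 5 in the fit of 6 arrays and 5 to 7 with 1 array left out. Later sterol genes numbered 5 with array weights, 1 without the 3 arrays and 1 to 7 with 1 left out (medians -0.37 to -0.16). Chaperones of the endoplasmic reticulum numbered 16 with the replicate block, 6 with a mean of at least 5, 6 without the 3 arrays (median -0.13) and 3 to 12 with 1 left out (medians -0.21 to -0.12). Against 12 h the block gave 546 higher and 756 lower, and leaving out 1 array 129 to 534 and 220 to 797. Of the named genes, Gabarapl2 turned to -0.03 as the mean of its clusters and Odc1 to -0.01 without untreated replicate 1 and -0.02 without 24 h replicate 3 (-0.02 to 0.12 with 1 array left out); the other genes chosen by the naming rule kept their direction in the fits run, and genes added for their role were not refitted. With 3 arrays a group and no call, the nominal counts limit what can be said of any list.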

Other observations

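Lists not described above had small counts of nominal genes at 24 h. Of all genes 3.18% were nominally higher and 4.74% nominally lower. Of 44 targets of SRF, YAP and TGF-beta, 2 were nominally higher and 0 lower, with a median of 0.08: Cnn2, a calponin of the actin skeleton, by 0.28 and Ankrd1, a YAP target, by 0.22, both with separate arrays. The higher count was 0 without untreated replicate 1 or 24 h replicate 1 and 4 without 24 h replicate 2, where the median was 0.02. Of the 44, 6 were separate and higher, where 4.48% of all genes were, and 0 separate and lower. Of 45 matrix genes Timp2, an inhibitor of metalloproteinases, was higher by 0.18, and the proteoglycan genes Bgn and Ogn were lower by 0.29 and 0.71 with overlapping arrays. Eln, elastin, had a difference of -1.03 ± 0.68 that rested on 24 h replicate 1, at 6.90 where the other two read 9.31 and 9.14.

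Of 37 genes of ribosome biogenesis Nop2, a methyltransferase of ribosomal RNA, was nominally lower by 0.33 and Polr1a, of RNA polymerase I, by 0.19, and 6 were nominally lower with the replicate block. Of 33 ribosomal protein genes 1 was nominally lower, Rpl41 (-0.25). Of 18 genes tied to FOXO and quiescence 3 were nominally lower (16.7%, against 4.74% of all genes). The 3 were Foxo4 (-0.39), Sesn1 and Tob1 (-0.16), and the count was 1 without untreated replicate 3 or 24 h replicate 1. Of 18 tRNA synthetase genes 1 was nominally lower, Vars (-0.19). Of 24 cytokine genes 1 was, Il6 (-0.25), at the floor of the array in both groups. Of 15 genes of methionine metabolism 1 was nominally higher, Apip (0.53 ± 0.19), an enzyme of methionine salvage, with overlapping arrays.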
